A study of Mus musculus with 24 samples.

Results

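The genes described here are the chains of the collagens and the 2 discoidin domain receptors, DDR1 and DDR2, in cultured mouse lung adenocarcinoma cells. They were taken by symbol, as every gene named as a collagen chain plus Ddr1 and Ddr2, which gave 46 genes, 44 chains and 2 receptors, of 38937 genes in one count table and 39310 in the other. Of the 46, 33 reached 0.2 CPM (gene counts scaled to a common library size, corrected by the TMM method) in at least 1 library, and 13 stayed under that level in all 24 libraries and were set aside. The 13 were Col1a2, Col3a1, Col6a4, Col6a5, Col6a6, Col9a1, Col9a2, Col10a1, Col11a1, Col13a1, Col19a1, Col22a1 and Col25a1. The libraries fell into 6 groups of 4, grown from lung tumour cells that had been sorted as positive for GFP and negative for CD45. S/S cells have the wild-type translation initiation factor eIF2α, whose serine is phosphorylated in the integrated stress response, and A/A cells have alanine at that serine, so that it cannot be phosphorylated. In the first table all cells are S/S and carry a scramble shRNA (S/S shControl) or, as S/S shAtf4, one that targets Atf4, the gene of a transcription factor made when eIF2α is phosphorylated. The second table holds both genotypes, each given a control siRNA (S/S siControl, A/A siControl) or with one against Chchd10, a gene for a mitochondrial protein (S/S siChchd10, A/A siChchd10). The genotype field of the A/A siControl samples reads WT while their titles read A/A, and the titles were followed. The labels do not say how many tumours, animals or clones each genotype came from, or whether its 4 libraries are separate cultures. The p-values therefore measure only the spread between these libraries, which may be technical.

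Collagens are extracellular matrix proteins built of 3 chains wound into a triple helix inside the endoplasmic reticulum, with the help of hydroxylases and of the chaperone HSP47, which Serpinh1 encodes. Fibril-forming collagens such as I, III and V give tissue its tensile strength and come mostly from fibroblasts, whereas epithelial cells contribute to the sheet-like networks of collagen IV in the basement membrane beneath them. DDR1 and DDR2 are receptor tyrosine kinases that bind triple-helical collagen. DDR1 is typical of epithelial cells and DDR2 of mesenchymal cells.

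The targeted genes were read in every library first. Atf4 measured 565, 835, 818 and 498 CPM in S/S shControl and 302, 237, 319 and 225 CPM in S/S shAtf4, and the groups did not overlap. Chchd10 measured 38.1 to 46.0 CPM in the S/S siControl libraries and 5.34 to 6.82 CPM in S/S siChchd10, and 7.97 to 10.2 and 1.37 to 2.15 CPM in the matching A/A groups. Library totals ran from 14067290 to 70932804 counts in the shRNA table and from 42863650 to 75409451 counts in the siRNA table. As a check of the cell type, 7 epithelial markers summed to 3935 to 6726 CPM per library, although Nkx2-1 and Sftpc, which mark the lung lineage, were at 0 in all S/S shControl libraries. Fibroblast and mural markers summed to 0.576 to 4.21 CPM, endothelial markers to 0.450 to 2.27 CPM and leukocyte markers to 1.90 to 4.96 CPM, and 4 mesothelial markers to 40.8 to 165 CPM. Among the fibroblast markers Lum, Dpt, Pi16, Thy1 and Tcf21 were each at 0 in all libraries of at least 1 group. In bulk RNA, fewer cells of a type and less RNA per cell cannot be told apart.

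Collagen IV and collagen XVIII supplied most of the collagen chain mRNA in every group. Levels were divided by the kilobases of annotated exon of each gene. That length joins the exons of all annotated transcripts and can exceed the mRNA present, so ranks, shares and ratios between genes are approximate. By this measure Col4a1 (chromosome 8, 11198423 to 11312889, GRCm38.p6), a chain of the main basement membrane network, had the highest level of the 46 genes in all 6 groups. Its mean level was 107 ± 6.19 CPM per kb (SD, n = 4) in S/S shControl, 64.4 ± 3.15 in S/S siControl and 107 ± 5.12 in A/A siControl. The chains of collagen IV together made up 57.0% ± 5.37 of the summed chain CPM per kb in S/S shControl, 60.1% ± 0.392 in S/S siControl and 77.8% ± 0.357 in A/A siControl. Col18a1 (chromosome 10, 77052178 to 77166530), which encodes a basement membrane proteoglycan and the precursor of endostatin, made up 25.6% ± 1.72, 26.9% ± 0.455 and 11.7% ± 0.523 in the same order. The fibril-forming chains came to 5.45% ± 1.01, 2.95% ± 0.140 and 3.07% ± 0.0610. Of the chains of connective tissue fibrils, Col3a1 and Col1a2 stayed under 0.2 CPM in every library. Col1a2 encodes the partner of the Col1a1 product in the usual form of collagen I.

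**Figure D1:**
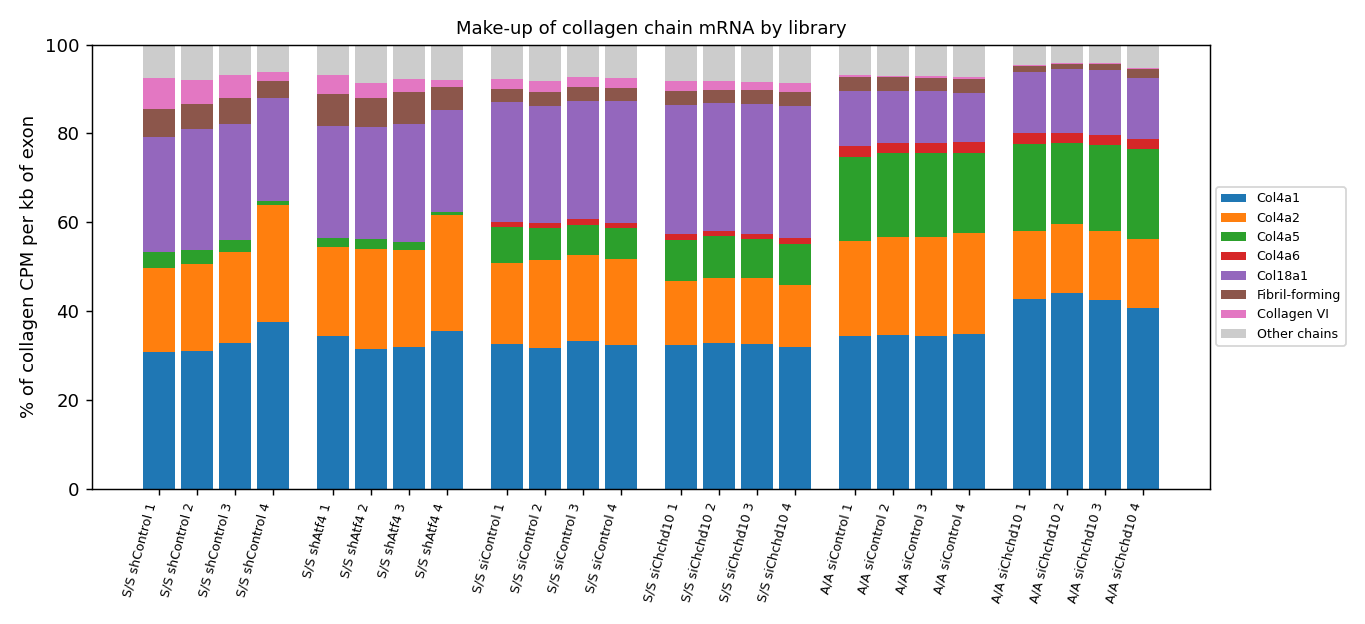
Stacked bars give, for each of the 24 libraries, the percent of the summed collagen chain level (CPM per kb of exon) held by each chain or class. Collagen IV fills 53.2% to 64.8% of the bar in S/S shControl and 77.2% to 78.0% in A/A siControl, where the Col4a5 segment is wider and the Col18a1 segment narrower than in S/S siControl.

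Among the highest levels per kb, Col4a5 stood at rank 5 in S/S siControl and 3 in A/A siControl, and Col18a1 at rank 2 and 4. Lower genes changed place too: Ddr2 stood at rank 19 and 10, Col11a2 at 13 and 7, Col6a1 at 7 and 13, Col16a1 at 8 and 15 and Col5a1 at 10 and 19. In S/S siControl the levels per kb ran from Col4a1 to Col18a1 (53.4 ± 2.52), Col4a2 (38.1 ± 2.99), Ddr1 (35.3 ± 1.72) and Col4a5 (14.4 ± 0.334). Col4a2 at 33.7 to 40.5 and Ddr1 at 33.8 to 37.7 overlapped, whereas each other neighbour in that order was separate in every library. In A/A siControl the order was Col4a1, Col4a2 (68.8 ± 3.91), Col4a5 (58.3 ± 2.85), Col18a1 (36.4 ± 1.06) and Ddr1 (27.6 ± 1.08), and no library of one of these genes overlapped its neighbour. The receptor Ddr2 stood far lower, at 0.446 ± 0.0495 CPM per kb in S/S siControl and 2.19 ± 0.213 in A/A siControl. The 2 tables were scaled apart, so levels in the shRNA table are set beside those of the siRNA table without a test.

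Genotype went with the most calls in the set. Of the 28 genes of this set that passed the low-count filter in the siRNA table, 27 differed between A/A siControl and S/S siControl, 14 higher and 13 lower in A/A cells (edgeR quasi-likelihood test, Benjamini-Hochberg adjusted p under 0.05 over all 18138 genes tested). The background was high: over all genes tested the share was 70.2% (35.6% higher, 34.7% lower). The median log2 fold change of the 28 genes was 0.395, against 0.00892 over all genes tested. Libraries of the 2 groups did not overlap for 14 genes higher and 12 lower, where all genes gave 32.8% and 31.8%. The genes split by class: 5 of 6 collagen IV chains rose and none fell, all 3 tested chains of collagen VI fell, both chains of the collagen XV and XVIII class fell, and of 7 fibril-forming chains 3 rose and 4 fell. The S/S shControl libraries were scaled apart and not tested against these groups. There Col7a1 (30.2 to 43.4 CPM) and Col8a1 (76.9 to 130 CPM) lay above the A/A siControl libraries. Col11a2 (9.56 to 12.6 CPM) and Col4a5 (18.5 to 75.6 CPM) lay below them. The 28 genes had passed the filter partly through the group in which they were high, so the counts of calls are a description. Beside them, the sum of fibroblast and mural markers was 3.06 to 4.21 CPM in the S/S siControl libraries and 1.97 to 2.38 CPM in A/A siControl. Of 6 tested markers 4 were lower (Dcn, Rgs5, Pdgfrb and Acta2) and 1 was higher (Cspg4). The mesothelial sum was 82.2 to 111 and 40.8 to 44.3 CPM, and the leukocyte sum 3.54 to 4.33 and 2.31 to 2.46 CPM. The epithelial sum was 5284 to 5896 and 4112 to 4271 CPM. All 7 epithelial markers were called, with Sftpc, Nkx2-1 and Cdh1 higher in A/A siControl and Epcam, Krt8, Krt18 and Krt19 lower. The sum of 4 Y-linked genes was 119 to 144 and 344 to 379.6 CPM. The part of these markers and genes in the result was not tested.

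Among basement membrane chains, Col4a1 measured 449, 483, 505 and 487 CPM in the S/S siControl libraries and 747, 836, 807 and 815 CPM in A/A siControl, a log2 difference of 0.74 (SE 0.0549, adjusted p = 1.66e-12). Col4a2 (chromosome 8, 11312805 to 11449287), whose product joins copies of the Col4a1 product in the common trimer, measured 223, 268, 260.3 and 257 against 417, 472, 461 and 472 CPM (0.85, SE 0.0566, adjusted p = 4.06e-13). All A/A siControl libraries lay above all S/S siControl libraries for both genes. The S/S shControl libraries, scaled apart and not tested against these, measured 754 to 857 CPM for Col4a1 and 417 to 536 CPM for Col4a2. The X-linked pair Col4a5 and Col4a6, whose chains join in a trimer found in some epithelial basement membranes, differed more. Col4a5 measured 98.4, 99.5, 94.8 and 95.5 CPM in the S/S siControl libraries and 370.4, 413, 402 and 382 CPM in A/A siControl (2.01, SE 0.0482, adjusted p = 6.35e-24). Col4a6 measured 17.9, 19.6, 19.9 and 19.9 against 58.1, 60.9, 58.2 and 56.9 CPM (1.60, adjusted p = 6.63e-18). Col4a3, a chain of the glomerular and alveolar trimer, was low, at 0.151 against 0.469 CPM on average, and rose by 1.64. Its partner Col4a4 did not pass (0.49, adjusted p = 0.174).

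The Col4a5 and Col4a6 genes lie head to head on the X chromosome, with 1274 bases between their RefSeq starts, and the exon-free stretches next to their starts are shown because the pair moved unequally in what follows. Both are from RefSeq (GRCm38.p6), written 5′ to 3′ on the strand of the gene, and capitals mark the CCAAT motif, the only one of 3 motifs searched that lies in either stretch. The Col4a5 stretch is at chrX:141475169-141475369 on the plus strand and ends 50 bases before the start site of the promoter table's entry, and the Col4a6 stretch is at chrX:141474096-141474326 on the minus strand.
Col4a5: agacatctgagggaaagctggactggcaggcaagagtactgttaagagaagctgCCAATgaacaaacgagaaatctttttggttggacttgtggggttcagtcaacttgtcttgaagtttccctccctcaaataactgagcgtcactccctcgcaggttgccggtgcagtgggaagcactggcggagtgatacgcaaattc
Col4a6: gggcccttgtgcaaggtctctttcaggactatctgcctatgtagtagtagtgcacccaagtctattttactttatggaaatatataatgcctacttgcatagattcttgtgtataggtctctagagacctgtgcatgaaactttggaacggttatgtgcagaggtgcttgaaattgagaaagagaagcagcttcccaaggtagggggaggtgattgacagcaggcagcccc
Promoter windows of 300 bases (250 before and 50 after a start) were matched for 37 of the 46 genes, as 43 windows. TGATGNAA, a form of the CCAAT-enhancer and ATF response element bound by ATF4, was found on neither strand in any of the 43, while 3.97% of all 32851 windows hold it. GGGCGG, the core of a GC box, was found on either strand in 26 of 43 (60.5%), against 35.7% of all windows, and CCAAT in 14 of 43 (32.6%), against 37.4%. These are letter matches in these windows and carry no test. The GGGCGG matches include windows of Col4a5 and Col4a6 whose letters fall outside the stretches printed.

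The same arrangement holds Col4a1 and Col4a2 on chromosome 8, where the RefSeq spans overlap by 85 bases on opposite strands. Ratios within these pairs, and of Col6a2 to Col6a1, were taken per library from the level per kb. The Col4a2 to Col4a1 ratio was 0.591 ± 0.0269 in S/S siControl and 0.445 ± 0.00981 in S/S siChchd10, and in A/A cells it was 0.641 ± 0.00995 with siControl and 0.366 ± 0.0118 with siChchd10. Within each genotype the 4 knockdown libraries lay below the 4 controls (exact two-sided permutation test p = 0.0286, the smallest that 4 against 4 allows, and adjusted p = 0.0524 over 11 ratio tests). In the shRNA table the ratio was 0.647 ± 0.0402 with shControl and 0.683 ± 0.0672 with shAtf4, and the groups overlapped (exact permutation p = 0.371). The Col4a6 to Col4a5 ratio was 0.168 ± 0.0107 in S/S siControl, 0.137 ± 0.00995 in S/S siChchd10, 0.126 ± 0.00429 in A/A siControl and 0.1203 ± 0.00215 in A/A siChchd10. The A/A siControl libraries lay below all S/S siControl libraries (exact permutation p = 0.0286, adjusted p = 0.0524), where the smallest possible p again did not pass after adjustment. The same p-values held for this ratio after siChchd10 in S/S cells and for Col4a2 to Col4a1 by genotype. They also held for Col6a2 to Col6a1 by genotype (0.348 ± 0.0344 in A/A siControl, 0.156 ± 0.0102 in S/S siControl). The remaining ratio tests had larger p-values. In the shRNA table Col4a5 and Col4a6 came apart: Col4a5 measured 13.1 to 75.6 CPM across the 8 libraries, while Col4a6 had 1 count in all 4 S/S shControl libraries together and 1 count in the 4 S/S shAtf4 libraries.

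**Figure D2:**
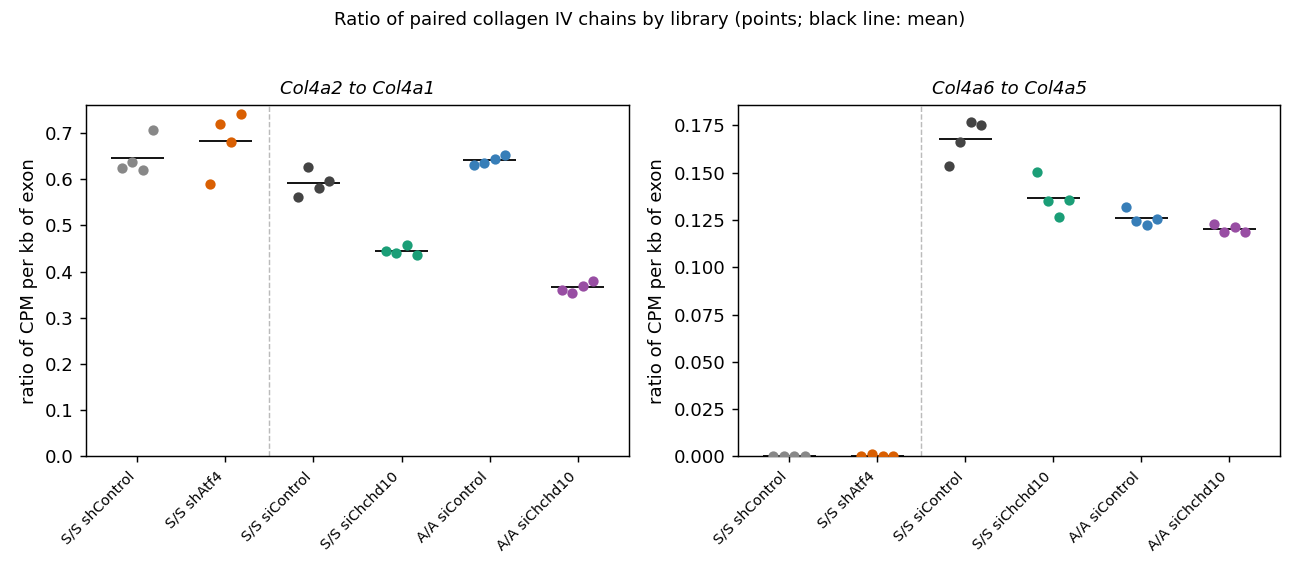
Ratio of the level per kb of exon of Col4a2 to Col4a1 (left) and of Col4a6 to Col4a5 (right), 1 point per library, with the group mean as a line and a dashed line between the separately scaled tables. The Col4a2 to Col4a1 ratio is lower in siChchd10 than in siControl libraries in both genotypes (0.445 against 0.591, and 0.366 against 0.641), and the Col4a6 to Col4a5 ratio is near 0 in the shRNA table.

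Among the fibril-forming chains, Col5a1 (chromosome 2, 27886381 to 28039510), which encodes a chain that starts fibrils and limits their width, measured 25.8, 29.7, 30.0 and 29.5 CPM in the S/S siControl libraries and 2.50, 0.731, 0.552 and 0.321 CPM in A/A siControl. The log2 difference was -4.77 (SE 0.312, adjusted p = 9.46e-09). A/A siControl replicate 1 was the highest of its group, and without it the difference was -5.73. Its partner Col5a2 reached 0.204 CPM at most, with 3 counts over S/S siControl and 23 over A/A siControl, a ratio of 7.54 (95% interval 2.28 to 39.2, for counting error only). Col11a2, a chain of cartilage fibrils, moved the other way: 6.83, 8.44, 8.13 and 5.70 CPM against 49.97, 60.8, 56.5 and 57.9 CPM (2.94, SE 0.147, adjusted p = 1.37e-10). Its partner Col11a1 was among the chains set aside. Col1a1 measured 3.50, 4.55, 4.20 and 3.44 against 4.90, 4.41, 4.90 and 5.16 CPM. The groups overlapped, and the rise of 0.30 (adjusted p = 0.0168) was lost without S/S siControl replicate 1 or 4.

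All tested chains of collagen VI, which forms beaded filaments at the border of the basement membrane, were lower in A/A cells. Col6a1 measured 16.04, 18.2, 17.4 and 17.8 CPM in the S/S siControl libraries and 4.33, 3.56, 4.04 and 3.34 CPM in A/A siControl (-2.18, adjusted p = 8.96e-17), and Col6a2 4.77, 4.93, 5.47 and 5.48 against 2.48, 2.59, 2.76 and 2.23 CPM (-1.04, adjusted p = 4.02e-09). Col6a3, which joins them in the usual trimer, measured 0.827, 1.11, 1.46 and 1.22 CPM in the S/S siControl libraries and 0.0378, 0, 0.0204 and 0.0214 in A/A siControl, or 229 counts against 4 (-5.69, SE 0.445, adjusted p = 3.36e-12). No A/A library overlapped an S/S library for any of these 3 chains.

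Collagen VII and the network and fibril-associated chains went in both directions. Col7a1, whose product makes the anchoring fibrils under epithelia, measured 5.62, 11.1, 6.99 and 6.89 CPM in the S/S siControl libraries and 13.6, 14.6, 14.0 and 14.4 CPM in A/A siControl (0.87, SE 0.151, adjusted p = 6.55e-05). Col16a1, a fibril-associated chain, went from 25.4, 24.6, 24.8 and 27.4 to 4.22, 3.72, 3.00 and 2.40 CPM (-2.93, adjusted p = 2.01e-18) and Col12a1, another, from 2.24, 1.67, 1.81 and 1.58 to 0.303, 0.316, 0.286 and 0.343 CPM (-2.54, adjusted p = 2.15e-11). Col20a1 and Col9a3 rose by 1.64 and 1.29, and Col8a1, a short-chain network collagen, by 0.73. Both collagens that carry an endostatin-type end fell. Col15a1 measured 11.8, 12.3, 12.2 and 11.4 CPM in the S/S siControl libraries and 2.80, 1.64, 2.10 and 1.91 in A/A siControl (-2.49, adjusted p = 3.84e-18), and Col18a1 349, 380.2, 381 and 389 against 255, 265, 257 and 247 CPM (-0.55, SE 0.0477, adjusted p = 2.93e-11). Col26a1 had no count in the 4 S/S siControl libraries and 47 counts in A/A siControl, which makes it at least 15.4-fold higher against a floor of 3 counts over the group. Col2a1 had 98 counts against 3 in A/A siControl, a ratio of 33.2 (11.04 to 164). The falls of Col24a1 (-2.07), Col28a1 (-3.98) and Col27a1 (-0.29, with overlapping libraries) and the rise of Col5a3 (2.68, at 0.0430 against 0.276 CPM) completed the calls. Col17a1, the transmembrane collagen of hemidesmosomes, had levels of 0 to 0.698 CPM over the 24 libraries and was not tested.

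**Figure D3:**
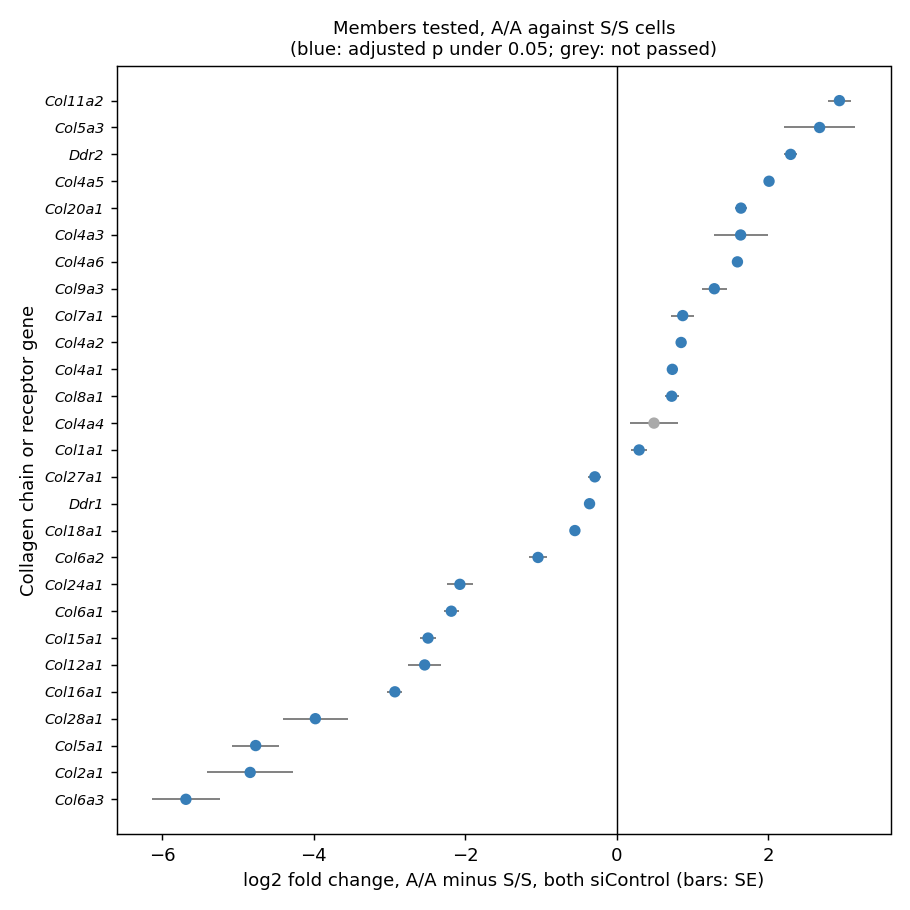
Fitted log2 fold change (points) with its SE (bars) for A/A siControl against S/S siControl, for 27 of the 28 chains and receptors tested. Col26a1, with no count in S/S cells, is left out because its fitted value has no bound. The values run from -5.69 for Col6a3 to 2.94 for Col11a2, and Col4a4 (0.49) is the gene that did not pass.

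The receptors took opposite directions by genotype. Ddr1 (chromosome 17, 35681567 to 35704741) measured 165, 161, 168 and 180.0 CPM in the S/S siControl libraries and 132, 137, 133 and 124 CPM in A/A siControl, and fell by 0.36 (SE 0.0460, adjusted p = 7.11e-08), with a mean CPM at 78.0% of the S/S mean. Ddr2 (chromosome 1, 169972307 to 170110836) measured 4.73, 4.24, 3.67 and 3.90 against 17.6, 20.2, 21.5 and 21.9 CPM, and rose by 2.30 (SE 0.0862, adjusted p = 1.80e-19). No A/A siControl library overlapped an S/S siControl library for either receptor. In S/S shControl, scaled apart and not tested against these, Ddr1 measured 91.7 to 117 CPM and Ddr2 4.44 to 30.2 CPM. Ddr2 was the gene of the set that moved most after shAtf4, and the stretch before one of its starts is printed for that reason. It lies at chr1:170088945-170089194 on the minus strand (RefSeq, GRCm38.p6), before a start that is inside the gene's annotated span. The stretch is therefore within the gene, outside annotated exons. The bases before the outer 5′ end of the span, at 170110836, are not shown, and whether the stretch acts as a promoter was not tested. The stretch is written 5′ to 3′ without capitals because none of the 3 motifs lies in it.
Ddr2: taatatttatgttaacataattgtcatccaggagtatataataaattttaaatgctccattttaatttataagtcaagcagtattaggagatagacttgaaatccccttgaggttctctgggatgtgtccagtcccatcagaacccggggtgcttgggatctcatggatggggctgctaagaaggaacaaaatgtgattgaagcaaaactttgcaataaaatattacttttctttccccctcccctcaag

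**Figure D4:**
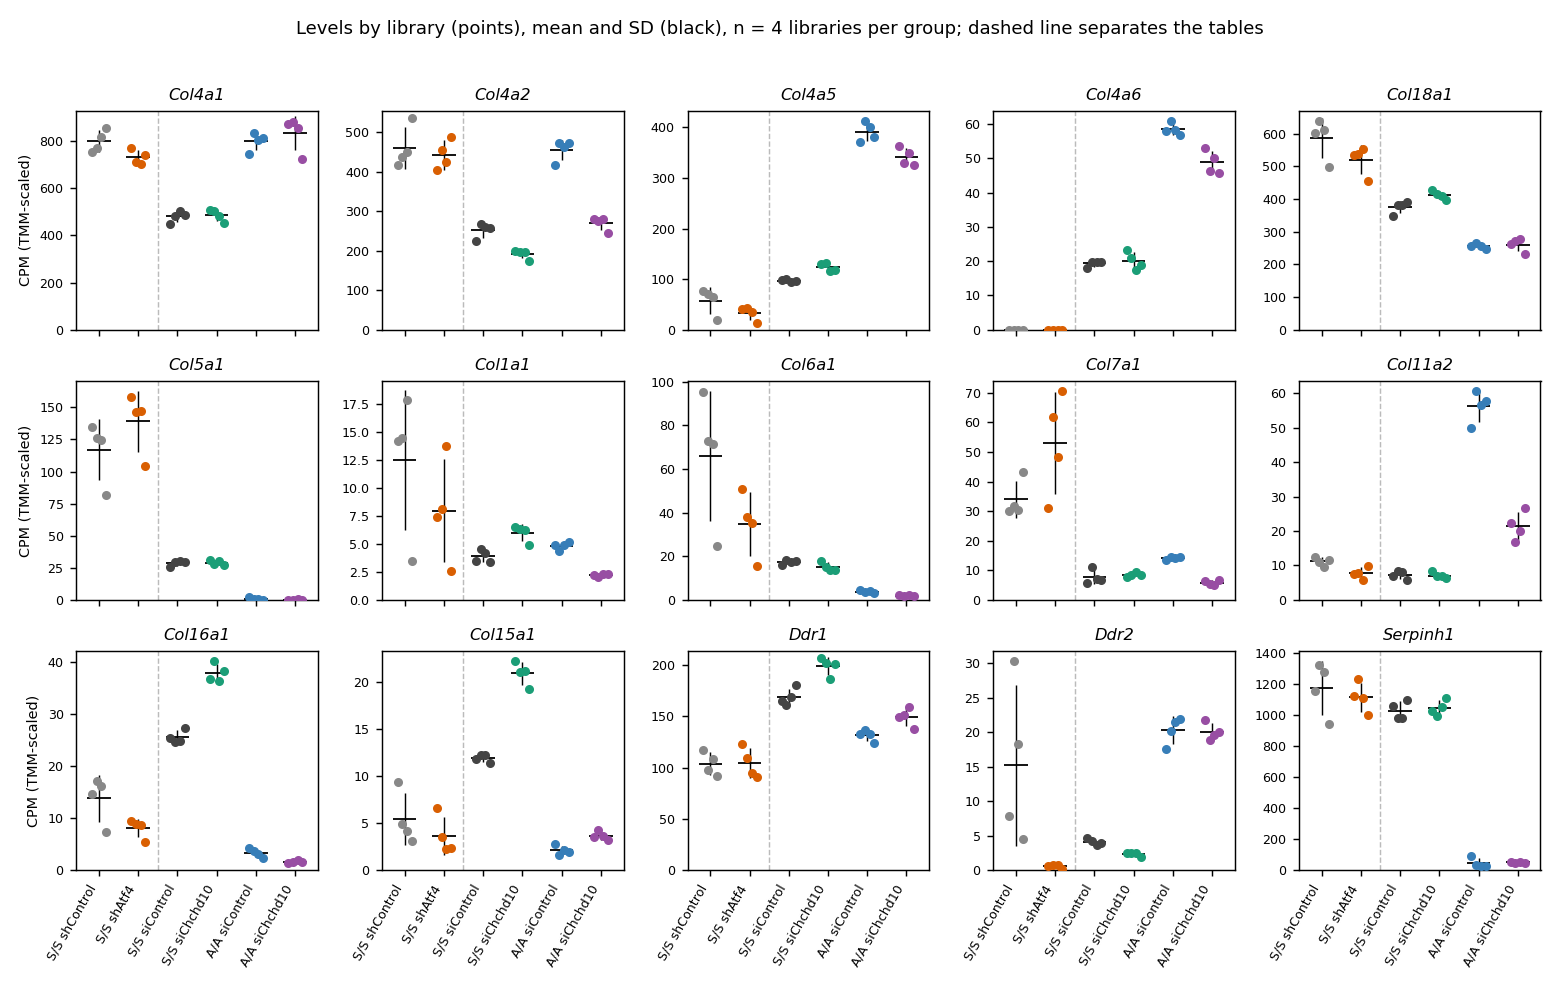
CPM in each library (points) with the group mean and SD (black) for 14 chains and receptors and for the collagen chaperone gene Serpinh1, n = 4 libraries per group, each panel with its own axis from 0 and a dashed line between the separately scaled tables. Col4a5 lies at 94.8 to 99.5 CPM in the S/S siControl libraries and at 370.4 to 413 CPM in A/A siControl, while Col5a1, Col6a1, Col16a1 and Serpinh1 lie lower in both A/A groups than in both S/S groups of the siRNA table.

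Knockdown of Chchd10 in S/S cells changed 15 of the 28 tested genes, 9 higher and 6 lower (edgeR, adjusted p under 0.05). The share over all genes tested was 28% (15% higher, 13% lower). The median log2 fold change of the set was 0.00695, against 0.000378 over all genes. Libraries did not overlap for 8 genes higher and 6 lower, where all genes gave 13.7% and 11.8%. Beside these, fibroblast and mural markers summed to 3.06 to 4.21 CPM before and 2.15 to 2.85 CPM after knockdown (1 of 6 tested, Pdgfrb, fell), mesothelial markers to 82.2 to 111 and 143 to 153 CPM, and epithelial markers to 5284 to 5896 and 5912 to 6318 CPM. Their part in the result was not tested. The rises included both collagens with an endostatin-type end. Col15a1 measured 11.8, 12.3, 12.2 and 11.4 CPM under siControl and 22.3, 21.02, 21.1 and 19.3 CPM with siChchd10 (0.81, SE 0.0844, adjusted p = 1.62e-08). Col18a1 rose by 0.14, from 375 ± 17.7 to 412 ± 11.7 CPM (adjusted p = 0.0324), a call lost without S/S siControl 1, S/S siChchd10 1 or S/S siChchd10 2.

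Of 7 fibril-forming chains 3 rose and 1 fell in S/S cells, and of 4 fibril-associated chains 1 rose and 1 fell. Col1a1 went from 3.50, 4.55, 4.20 and 3.44 to 6.56, 6.30, 6.26 and 4.88 CPM (0.61, SE 0.107, adjusted p = 6.62e-05), and Col24a1 from 2.20 ± 0.236 to 3.41 ± 0.320 CPM (0.63, adjusted p = 0.000626). Col16a1 rose by 0.57, from 25.6 ± 1.26 to 37.9 ± 1.74 CPM. Col28a1 rose by 0.81 with overlapping libraries, a call lost without S/S siControl 1. Col27a1 (0.30) and Col4a5 (0.35) rose too. The falls were of Col2a1 (-1.44, 98 against 36 counts), Col12a1 (-0.59, from 1.82 to 1.21 CPM, lost without S/S siControl 1 or S/S siChchd10 4), Col8a1 (-0.52), Col4a2 and Col6a2 (both -0.39) and the receptor Ddr2. Col4a2 went from 223, 268, 260.3 and 257 to 200.1, 197, 196 and 175 CPM (SE 0.0566, adjusted p = 5.85e-06) while Col4a1 stayed at 487 ± 25.5 against 481 ± 23.5 CPM (0.02, adjusted p = 0.849). Col5a1 (0.01), Col6a1 (-0.21), Col7a1 (0.13) and Col11a2 (-0.05) did not pass. Ddr1 rose from 165, 161, 168 and 180.0 to 207, 202, 186 and 201 CPM (0.24, SE 0.0458, adjusted p = 0.000192), and Ddr2 fell from 4.73, 4.24, 3.67 and 3.90 to 2.48, 2.47, 2.49 and 1.94 CPM (-0.81, SE 0.108, adjusted p = 1.12e-06). The libraries of the 2 groups did not overlap for either receptor.

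In A/A cells the same siRNA lowered many more chains than it raised. Of 28 genes tested, 16 passed, 2 higher and 14 lower, where 53.7% did over all genes tested (26.5% higher, 27.2% lower). The median of the set was -0.262, against -0.0121 over all genes. Libraries did not overlap for 3 genes higher and 13 lower, where all genes gave 25% and 24.9%. Fibroblast and mural markers summed to 1.97 to 2.38 CPM before and 1.70 to 2.04 CPM after knockdown (1 of 6 tested, Cspg4, fell). Mesothelial markers summed to 40.8 to 44.3 before and 47.6 to 53.5 CPM after knockdown (of 2 tested, Msln rose and Upk3b fell). Leukocyte markers summed to 2.31 to 2.46 and 1.90 to 2.15 CPM (Cd68 fell). All 7 epithelial markers were called, 4 higher and 3 lower. The part of these markers in the result was not tested. All classes with more than 2 tested chains held falls: 4 of 7 fibril-forming chains, 3 of 6 collagen IV chains, 2 of 3 collagen VI chains and 3 of 4 fibril-associated chains fell, and none of these rose. Col11a2 measured 49.97, 60.8, 56.5 and 57.9 CPM under siControl and 22.4, 16.7, 20.1 and 26.6 CPM with siChchd10 (-1.39, SE 0.131, adjusted p = 5.80e-07). Col7a1 went from 13.6, 14.6, 14.0 and 14.4 to 6.45, 5.53, 4.94 and 6.65 CPM (-1.25, SE 0.153, adjusted p = 3.05e-06). Col1a1 went from 4.90, 4.41, 4.90 and 5.16 to 2.25, 2.06, 2.32 and 2.29 CPM (-1.12, SE 0.115, adjusted p = 3.34e-09). In each of these 3 genes every knockdown library lay below every control.

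Other falls in A/A cells were of Col9a3 (-1.36, from 4.88 ± 0.624 to 1.88 ± 0.223 CPM), Col6a2 (-1.28, from 2.51 ± 0.222 to 1.05 ± 0.226 CPM), Col16a1 (-1.10), Col20a1 (-0.99), Col6a1 (-0.95), Col8a1 (-0.78), Col27a1 (-0.46), Col4a6 (-0.26) and Col4a5 (-0.20). Col5a1 fell by 2.12 (SE 0.652, adjusted p = 0.0151) from 2.50, 0.731, 0.552 and 0.321 to 0.225, 0.0776, 0.404 and 0.263 CPM, with overlapping libraries. That value rests on A/A siControl replicate 1: without it Col5a1 fell by 1.14 (adjusted p = 0.00464), and in a fit of the A/A libraries alone the call was lost (adjusted p = 0.0618). Col4a2 measured 417, 472, 461 and 472 CPM under siControl and 279, 276, 280.3 and 245 with siChchd10 (-0.75, SE 0.0564, adjusted p = 2.19e-11), and again Col4a1 did not pass (0.06, adjusted p = 0.394). Col15a1 rose by 0.77, from 2.11 ± 0.496 to 3.64 ± 0.422 CPM (adjusted p = 3.23e-06), and Ddr1 by 0.18, from 132, 137, 133 and 124 to 149, 152, 159.5 and 138 CPM (adjusted p = 0.00133). Ddr2 stood at 20.3 ± 1.97 and 20.0 ± 1.25 CPM and did not pass (-0.02, SE 0.0736, adjusted p = 0.860).

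The difference between the siChchd10 effects in the 2 genotypes was tested directly, with separate controls for each. It passed for 15 of the 28 genes, 1 higher and 14 lower in A/A than in S/S cells, where the share over all genes was 35.6% (16.7% higher, 18.9% lower). The median difference was -0.432 in the set and -0.0148 over all genes. Col1a1 (difference -1.73, SE 0.157, adjusted p = 2.02e-09), Col16a1 (-1.66, SE 0.159, adjusted p = 1.83e-08), Col27a1 (-0.76, adjusted p = 2.23e-05) and Col4a5 (-0.55, adjusted p = 2.24e-07) rose in S/S cells and fell in A/A cells. Col7a1 (-1.39, SE 0.218, adjusted p = 0.000118), Col11a2 (-1.34, SE 0.211, adjusted p = 0.000221) and Col9a3 (-0.91, adjusted p = 0.00639) fell in A/A cells and did not pass in S/S cells. Col4a2 (-0.36, adjusted p = 0.000899) and Col6a2 (-0.89, adjusted p = 0.000235) fell in both, by more in A/A cells. Col5a1 differed by -2.13 (adjusted p = 0.0293), a call lost in 5 of 20 alternatives, and by -1.15 without A/A siControl replicate 1. Ddr2 was the gene with the opposite sign (0.79, SE 0.131, adjusted p = 2.59e-05). Col15a1 (-0.04, SE 0.148) and Ddr1 (-0.05, SE 0.0649) rose in both genotypes and their effects did not pass as different (adjusted p = 0.865 and 0.551). The genotype comparison shares its siControl libraries with both knockdown comparisons, so the values are set side by side only: the chains Col11a2, Col7a1, Col9a3, Col20a1, Col8a1 and Col4a2, higher in A/A siControl by 2.94, 0.87, 1.29, 1.64, 0.73 and 0.85, changed by -1.39, -1.25, -1.36, -0.99, -0.78 and -0.75 after siChchd10 in A/A cells. Col1a1, Col4a5 and Col4a6 were also higher in A/A siControl and fell after siChchd10. Col4a1, Col4a3, Col5a3, Col26a1 and Ddr2 were higher and did not pass after siChchd10 in A/A cells. Col5a1, Col6a1, Col6a2, Col16a1 and Col27a1 were lower in A/A siControl and fell as well, and Col15a1 and Ddr1 were lower and rose. Col2a1, Col6a3, Col12a1, Col18a1, Col24a1 and Col28a1 were lower and did not pass.

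**Figure D5:**
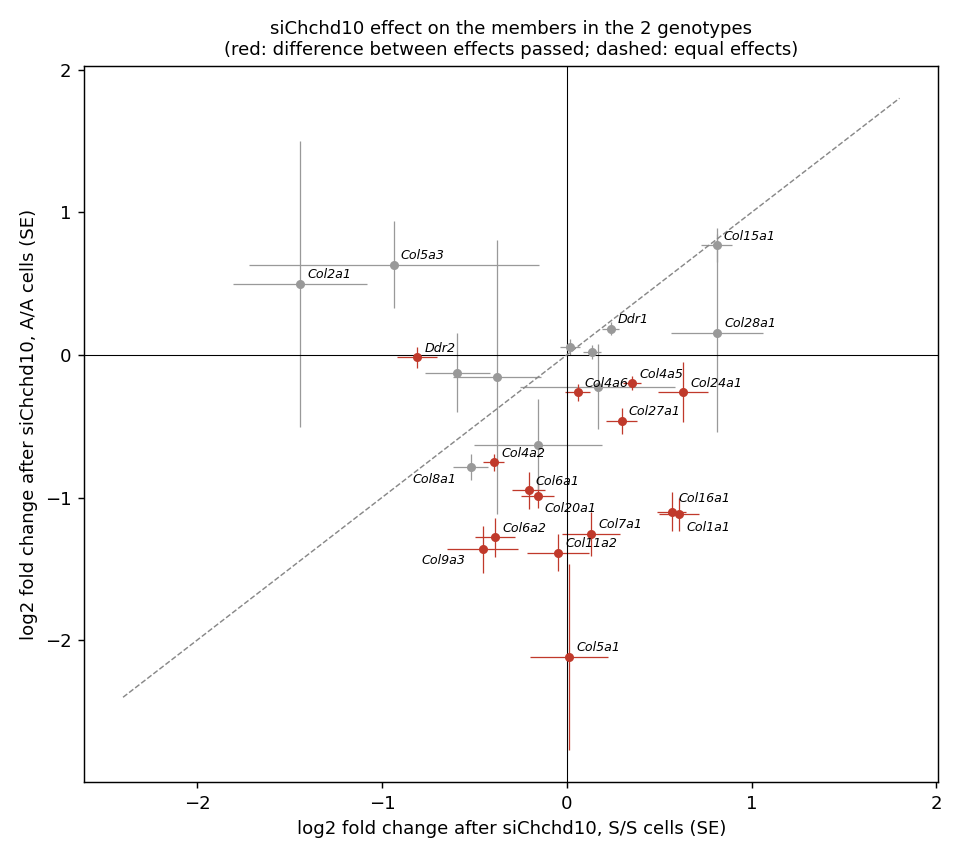
Each point is 1 chain or receptor, with its log2 fold change after siChchd10 in S/S cells (horizontal) and in A/A cells (vertical), both with SE bars. Red marks the 15 genes whose effects differed between genotypes, and 14 of them lie under the dashed line of equal effects, Ddr2 above it. Col26a1 had no count in S/S cells and is left out.

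Knockdown of Atf4 in S/S cells left most of the set without a call. Of 22 genes tested 1 passed, Ddr2, where the share over all 14697 genes was 0.538% (0.15% higher, 0.388% lower). At an unadjusted p under 0.05 there were 1549 of all genes. The median of the set was -0.375, against -0.00487 over all genes. Ddr2 measured 7.83, 30.2, 18.2 and 4.44 CPM in S/S shControl and 0.641, 0.732, 0.688 and 0.105 CPM in S/S shAtf4, without overlap, as the 1 gene of the set whose groups stood apart (over all genes 3.22% were higher and 3.57% lower without overlap). It fell by 4.99 on the log2 scale in the fit (SE 0.780, adjusted p = 0.0357), the mean CPM with shAtf4 was 3.57% of the mean with shControl, and the control libraries themselves spanned 4.44 to 30.2 CPM. The call was lost without the low-count filter and when any 1 library was left out, S/S shControl replicate 4 excepted (largest adjusted p = 0.163), with values from -5.35 to -4.37 over all alternatives. The Y-linked genes Ddx3y, Uty, Kdm5d and Eif2s3y, 4 of 4 tested, also fell here, from a sum of 111 to 135 CPM to 1.46 to 3.56 CPM. Of 5 tested epithelial markers 1 fell, Cdh1, and 4 did not pass. The epithelial sum was 4032 to 6726 CPM in S/S shControl and 4368 to 6651 CPM in S/S shAtf4. The part of these genes in the Ddr2 result was not tested.

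In the shRNA table the shAtf4 libraries numbered 1, 2 and 4 deviated most like the shControl library of the same number. Number 3 matched another number better. Fits with the replicate number as a block gave more calls. With the block 11 of the 22 genes passed, 2 higher and 9 lower, where 20.2% of all genes passed, 10.1% in each direction. Col5a1 (0.26, adjusted p = 0.00345) and Col7a1 (0.61, adjusted p = 0.0115) were higher. Ddr2 (-4.85, adjusted p = 1.34e-09), Col12a1 (-1.38), Col6a1 (-0.89, adjusted p = 6.52e-07), Col4a5 (-0.75, adjusted p = 4.68e-06), Col16a1 (-0.74), Col1a1 (-0.64), Col15a1 (-0.57), Col11a2 (-0.53) and Col18a1 (-0.17) were lower. Without the block the same genes had adjusted p-values of 0.338 and above, other than Ddr2. In the blocked fit Col4a1 (-0.13, adjusted p = 0.141), Col4a2 (-0.05, adjusted p = 0.546) and Ddr1 (0.01, adjusted p = 0.955) did not pass. Replicate 4 stood apart: it was the lowest library of both groups for 12 of the 22 genes (54.5%), against 29.7% of all genes. Col6a1 measured 95.2, 72.6, 71.4 and 24.6 CPM in shControl and 50.7, 38.2, 35.1 and 15.3 in shAtf4, and Col4a5 75.6, 70.8, 64.1 and 18.5 against 40.8, 42.3, 36.0 and 13.1 CPM. Within each number the shAtf4 library of both genes was the lower one. With both replicate 4 libraries left out and no block, 6 genes passed, all lower, where 11.7% of all genes passed (5.58% higher and 6.14% lower): Ddr2 (-4.76, adjusted p = 0.00953), Col12a1, Col6a1 (-0.96), Col16a1, Col4a5 (-0.82) and Col11a2. Col7a1 measured 30.2, 31.8, 30.5 and 43.4 CPM in shControl and 31.2, 61.9, 48.5 and 70.8 CPM in shAtf4, and Col5a1 135, 126, 124 and 82.0 against 158, 146, 147 and 105 CPM. For both, the shAtf4 library of each number was the higher one.

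The genes that make and place collagen were read from lists of related genes. Their counts stand beside the shares over all genes tested, which were 35.6% higher and 34.7% lower by genotype, 15% and 13% after siChchd10 in S/S cells and 26.5% and 27.2% after siChchd10 in A/A cells. Of 16 tested processing enzymes, which hydroxylate and fold the chains, 6 rose and 7 fell in A/A against S/S cells, with Fkbp14 (0.84) and P3h1 (0.56) as the largest rises and P3h2 (-4.39) and Fkbp10 (-2.99) as the largest falls. After siChchd10, 5 rose and 5 fell in S/S cells and 5 rose and 7 fell in A/A cells. P4hb, a subunit of prolyl 4-hydroxylase, rose in both (0.35 and 0.57). Plod2, which hydroxylates lysines of the chain ends, went from 57.1 ± 1.85 to 24.6 ± 1.29 CPM in A/A cells (-1.21, adjusted p = 1.78e-16) and from 54.0 ± 3.62 to 61.8 ± 4.55 CPM in S/S cells, and the effects differed (-1.41, adjusted p = 8.20e-14). Of 9 chaperone and secretion genes 2 rose and 5 fell by genotype. Serpinh1 (chromosome 7, 99345375 to 99353239) measured 1059.7, 977, 979 and 1098 CPM in the S/S siControl libraries and 90.9, 35.1, 29.2 and 27.2 CPM in A/A siControl (-4.49, SE 0.332, adjusted p = 3.71e-08, and -5.07 without A/A siControl replicate 1). It did not pass after siChchd10 in A/A cells (0.12, adjusted p = 0.772), but without A/A siControl replicate 1 it rose by 0.72 (adjusted p = 2.39e-09). Mia3, a receptor that loads collagen into transport vesicles, was lower by genotype (-0.83), and its relative Mia2 rose by 0.53. After siChchd10, 4 of these 9 genes rose and none fell in S/S cells, with Sar1b (0.21) and Sec31a (0.18) the largest, and 6 rose, led by Mia2 (0.44) and Sar1b (0.41), and 1 fell (Mia3, -0.09) in A/A cells. The fall of Mia3 was lost with the replicate block (adjusted p = 0.0718) and without A/A siControl replicate 1 (adjusted p = 0.184), where 7 rose.

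Of 10 propeptide cleavage and cross-linking genes tested by genotype, where 35.6% of all genes were higher and 34.7% lower, 1 rose (Loxl2, 0.99, from 41.5 ± 1.03 to 82.2 ± 2.48 CPM) and 8 fell, Adamts14 (-5.58) and the lysyl oxidase gene Loxl1 (-3.54) by most. Without A/A siControl replicate 1, 7 fell by genotype. After siChchd10, 7 of the 10 fell and none rose in A/A cells, where 27.2% of all genes were lower, Loxl3 (-1.37) among them, and 6 fell without that library, and in S/S cells 2 rose (Pcolce, 0.39, and Loxl2, 0.15) and 4 fell, with Loxl1 (-1.42) and Tll1 (-1.14) the largest. Adamts14 had 15 counts in A/A siControl and 0 in A/A siChchd10. Of 11 tested proteases and inhibitors 3 rose and 5 fell by genotype, where 70.2% of all genes were called: Mmp15 (1.77) and Mmp14 (1.37), membrane metalloproteases, rose, and Mmp10 (-4.17) and Mmp3 (-2.78) fell by most. After siChchd10, 1 of the 11 rose and 6 fell in S/S cells, where 15% of all genes were higher and 13% lower. In A/A cells 3 rose and 3 fell, where 26.5% were higher and 27.2% lower. Timp1, Timp2 and Mmp14 fell and Mmp15 rose in both genotypes. The effect of siChchd10 on Timp3, a matrix-bound inhibitor, ran in opposite directions. It measured 7.16, 2.80, 2.20 and 2.48 CPM and then 1.00, 1.34, 1.21 and 1.17 CPM in S/S cells (-1.60, adjusted p = 0.00419), and 4.18, 4.82, 3.60 and 4.16 and then 15.4, 13.5, 14.9 and 13.9 CPM in A/A cells (1.78, adjusted p = 6.77e-05). The difference was 3.38 (adjusted p = 5.66e-05). Mmp13, a collagenase, rose by 1.45 in A/A cells.

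Of 8 other collagen receptors tested, 7 rose and none fell by genotype, where 35.6% of all genes were higher and 34.7% lower. Itga1, the integrin chain that pairs with Itgb1 to bind collagen IV, measured 15.3, 12.8, 15.8 and 14.1 CPM in the S/S siControl libraries and 143, 168, 162 and 165 CPM in A/A siControl (3.46, SE 0.0847, adjusted p = 1.76e-17), and Mrc2, a receptor that takes up collagen, rose by 2.45 from 0.121 CPM. After siChchd10, Adgrg1, a receptor for collagen III, rose in both genotypes (0.37 and 0.56) and Adgrg6, which binds collagen IV, fell in both (-0.42 and -0.54). Itga1 rose in S/S cells (0.56) and fell in A/A cells, and the 2 effects passed as different. In A/A cells the largest fall was that of Itga10 (-1.21). Of the 8 receptors 3 rose and 1 fell in S/S cells, where 15% of all genes were higher and 13% lower. In A/A cells 1 rose and 3 fell, where 26.5% were higher and 27.2% lower. Of 10 matrix partners tested, 4 rose and 5 fell by genotype, against the same shares. Nid1, which links collagen IV to laminin, measured 284, 304, 314 and 306 against 730.2, 836, 810.1 and 829 CPM (1.41, adjusted p = 7.67e-20), and Tnxb rose by 1.11, while Tnc (-4.44) and Thbs1 (-3.37) fell by most. In S/S cells 7 of the 10 rose after siChchd10, where 15% of all genes were higher, Tnxb (0.56) and Bgn (0.41) by most, and 1 fell (Tnc, -0.54), and in A/A cells 2 rose (Bgn, 0.46, and Sparc, 0.28) and 4 fell, with Nid2 (-0.88) and Hspg2 (-0.45) the largest. In the shRNA table the only call in these 6 lists was Tnc, for tenascin C, which rose from 89.5 ± 30.0 to 263 ± 58.7 CPM after shAtf4 (1.56, SE 0.255, adjusted p = 0.0408). With the block, where 10.1% of all genes were higher and 10.1% lower, 1 of 9 matrix partners rose and 2 fell. Of 9 cleavage and cross-linking genes 3 rose and 3 fell, and of 16 processing enzymes 3 rose and 3 fell. Of 9 chaperone and secretion genes 2 rose and 2 fell. Of 9 proteases and inhibitors 2 fell, of 5 other collagen receptors 1 fell, and none of either list rose.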

How the data were processed

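Polyadenylated RNA from 24 libraries was read, per the labels' protocols, from TruSeq Stranded Total RNA libraries on a NovaSeq instrument. The authors deposited 2 tables of raw counts per gene, whole numbers without normalization. The submitters' processing notes name mm10 and DESeq2 1.24.0. The sources used here do not name the aligner, the counting tool or its strand setting, and reads of overlapping genes (Col4a1 and Col4a2, Ddr1 and Gm4577) may be shared. Each table was scaled by TMM and tested with edgeR 4.0.16 (R 4.3.3): quasi-likelihood fit with robust dispersion, filterByExpr, Benjamini-Hochberg adjustment over all genes tested, threshold 0.05. The 16 siRNA libraries shared 1 fit. SE is the log2 fold change over the square root of F. Levels per kb used the union of GENCODE exons, and promoters and spans RefSeq, GRCm38.p6. Ratios were tested by exact permutation (scipy 1.17.1).

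Per-library values were given for the receptors, the chains of collagens I, IV (Col4a1 and Col4a2), V, VI, VII, XII, XVII and XVIII, and the 6 called genes per comparison with the largest change and at least 1 CPM, and of the pathway lists the 2 largest rises and falls. Col4a5, Col4a6, Col8a1, Col20a1, Col2a1, Col26a1, Col27a1, Col4a3, Col4a4, Col5a3, Col24a1, Serpinh1, Plod2 and other genes outside that rule were chosen after their values were seen. The members and lists were chosen with earlier results of these data known. Alternatives were DESeq2 1.42.0, RLE factors in edgeR, no low-count filter, each library left out, both shRNA replicates numbered 4 left out, a fit of the compared groups alone and a replicate block. In the shRNA table, deviations from the group mean correlated between libraries with the same number (0.586, 0.499, 0.326 and 0.850). For number 3 a library of another number correlated more. Replicate 4 stood apart in both groups and enters those means, so the other correlations are not independent of it. The blocked fit is given beside the shAtf4 comparison. The pairing comes from the numbers in the sample titles. The edgeR fits were tried on simulated counts for shAtf4 and for siChchd10 in S/S cells only. Those counts held no replicate pairing and no library standing apart, so the trial does not cover these features or the other comparisons. Totals of 14067290 to 75409451 counts per library limit the precision of genes under about 1 CPM. Intervals and floors of 3 counts cover counting error only.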

Additional observations from a re-analysis of the deposited data

Results flagged for a closer look

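In 10 of 158 groups of 4 libraries, 1 library stood far from the others of its group, and chance gives about 1 in 20. The collagen IV chain gene Col4a2 measured 175 CPM in S/S siChchd10 replicate 4 (the others 196 to 200.1) and 245 CPM in A/A siChchd10 replicate 4 (276 to 280.3). Col4a4 measured 0.474 CPM in A/A siControl replicate 2 (0.321 to 0.340), and Col4a6 measured 17.9 CPM in S/S siControl replicate 1 (19.6 to 19.9). Col5a1 was at 25.8 CPM in S/S siControl replicate 1 (29.5 to 30.0). Col7a1 was at 43.4 CPM in S/S shControl replicate 4 (30.2 to 31.8), Col8a2 at 0.147 CPM in S/S shControl replicate 3 (0.316 to 0.351) and Col9a3 at 5.12 CPM in S/S shAtf4 replicate 2 (2.71 to 2.95). Ddr2 measured 0.105 CPM in S/S shAtf4 replicate 4 (0.641 to 0.732) and 1.94 CPM in S/S siChchd10 replicate 4 (2.47 to 2.49).

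The siChchd10 effect differed between A/A and S/S cells by edgeR's test of the difference for 15 genes. The A/A effect was lower, on the log2 scale, for Col5a1 (-2.13), Col1a1 (-1.73), Col16a1 (-1.66), Col7a1 (-1.39), Col11a2 (-1.34), Col9a3 (-0.91), Col24a1 (-0.89), Col6a2 (-0.89), Col20a1 (-0.83), Col27a1 (-0.76), Col6a1 (-0.74), Col4a5 (-0.55), Col4a2 (-0.36) and Col4a6 (-0.32). It was higher for Ddr2 (0.79).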

How the results depend on the processing

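Calls after shAtf4 depended on the processing. Among all genes, 79 passed, against 456 with DESeq2, 2969 with the replicate block, 1726 without both libraries numbered 4 and 13 to 536 with 1 library left out. Among the 22 collagen and receptor genes, 1 passed in edgeR, against 0 without the low-count filter, 11 with the block, 6 without both libraries numbered 4 and 0 to 2 with 1 library left out (1549 of all genes had an unadjusted p under 0.05). The cause was not tested. In the siRNA table the counts over the 28 genes and over all genes stayed within 1.5 times under the alternatives run. Some counts within small lists moved further. For example, without A/A siControl replicate 1, the proteases and inhibitors that differed between the siChchd10 effects went from 2 higher and 1 lower to 4 and 0, the chaperone and secretion genes that fell in A/A cells from 1 to 0 (also 0 with the block) and the mesothelial markers lower by genotype from 2 to 1. In the siRNA table libraries with the same number correlated less than in the shRNA table (-0.158 to 0.304, highest for number 4 in S/S cells). With a replicate block the counts over the 28 genes were 15 for siChchd10 in S/S cells, 16 in A/A cells, 14 for the difference and 27 for genotype. No called result changed sign under the alternatives run. Depth limits genes near 0.2 CPM most, in the shallowest library (14067290 counts, S/S shAtf4) above all, and 17 genes in place of 13 would be set aside at 0.5 CPM.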
